A study of Mus musculus with 6 samples.

Results

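The genes described here are the 4 ligand and receptor families that steer growing axons: netrins with Unc5, Dcc and Neo1, Slits with Robos, class 3 to 7 semaphorins with plexins, and ephrins with Eph receptors. Members were taken by gene symbol. They number 67 of the 49585 genes in the count table, 34 of them ligands and 33 receptors. The cells were AML12, an immortalised mouse hepatocyte line. Both groups carried an over-expression construct, with the open reading frame of EGFP (a fluorescent protein, the control) in one group and that of Zac1 in the other. Zac1, the product of the imprinted gene Plagl1, is a transcription factor with zinc fingers. PolyA RNA was sequenced 24 h after transfection in 3 libraries per group, numbered 1 to 3 for EGFP and 4 to 6 for Zac1. AML12 is a single line, and the sources used here do not give the promoter of the constructs or the share of cells that took them up. In RNA from a whole dish, a change in all cells and a larger change in some of them cannot be told apart. Whether the 3 libraries of a group are separate cultures is not said, so the p-values cover the spread between libraries only, and that spread may be technical.

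Guidance cues act on the growth cone, the motile tip of an axon, and attract or repel it. Netrins are secreted and attract through Dcc or repel through Unc5 receptors. Slits are secreted and repel through Robo receptors. Semaphorins are secreted or held in the membrane and signal through plexins, with neuropilins as co-receptors for most class 3 members. Ephrins and Eph receptors both sit in membranes and signal in both directions where cells touch. All 4 families also act outside the nervous system, in blood vessel growth, epithelial contacts and cell migration.

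Library totals ran from 14801240 to 18302538 counts. Plagl1 (ENSMUSG00000019817) had 39, 79 and 67 reads in EGFP and 106033, 135108 and 148382 in Zac1, so the libraries followed their labels. Of 12130 genes whose mean count reached 10, 378 were higher in Zac1 and 81 lower by the quasi-likelihood test of edgeR with Benjamini-Hochberg adjustment over all of them at a threshold of 0.05. Higher genes made up 82.4% of these calls, and 31.7% under a least-squares correction for transcript GC content. EGFP 1 and Zac1 4 stood apart from the other libraries on the second principal component of log2(CPM + 1) (10.4 and 11.6 against -8.82 to -2.22; 22.1% of the variance). Results without both are given in the last paragraph. Of 18 hepatocyte markers, Hnf4a (201.5 ± 9.92 CPM in EGFP, SD, n = 3) and Alb (34.7 ± 1.18 CPM) were present (CPM are counts scaled to a common library size), while Tat, Tdo2 and Cyp7a1 each had 1 read over the 6 libraries.

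Of the 67 members, 40 reached the mean count of 10 and were tested. Of these, 9 rose, or 22.5%, where 3.12% of all genes tested rose, and 0 fell, where 0.668% of all genes fell. The families were chosen with earlier results of these data known, and the shares were not tested against each other. At an unadjusted p under 0.05, 19 of the 40 were higher and 0 lower. The share of all genes at that unadjusted threshold was not counted, here or below. DESeq2 called 9 higher (2.75% of all genes), limma on log2(CPM + 1) 10 (3.08%) and voom with library quality weights 15 (6.57%), each with 0 lower. The estimated change was above 0 for 37 of the 40, against 49.5% of all genes, with a median log2 fold change of 0.18 against -0.002. With least-squares GC offsets, 7 rose and 3 fell, 24 of 40 estimates were above 0 and the median was 0.06 against -0.045. All 3 Zac1 libraries lay above all 3 EGFP libraries for 19 members (47.5%), against 11.9% of all genes, and the reverse held for 0 members, against 8.75%. The lowest mean count among tested members was 13.0, and the highest among those left out was 9.67. Efna3 alone passed the count minimum through its Zac1 libraries, its EGFP mean being below 10.

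**Figure D1:**
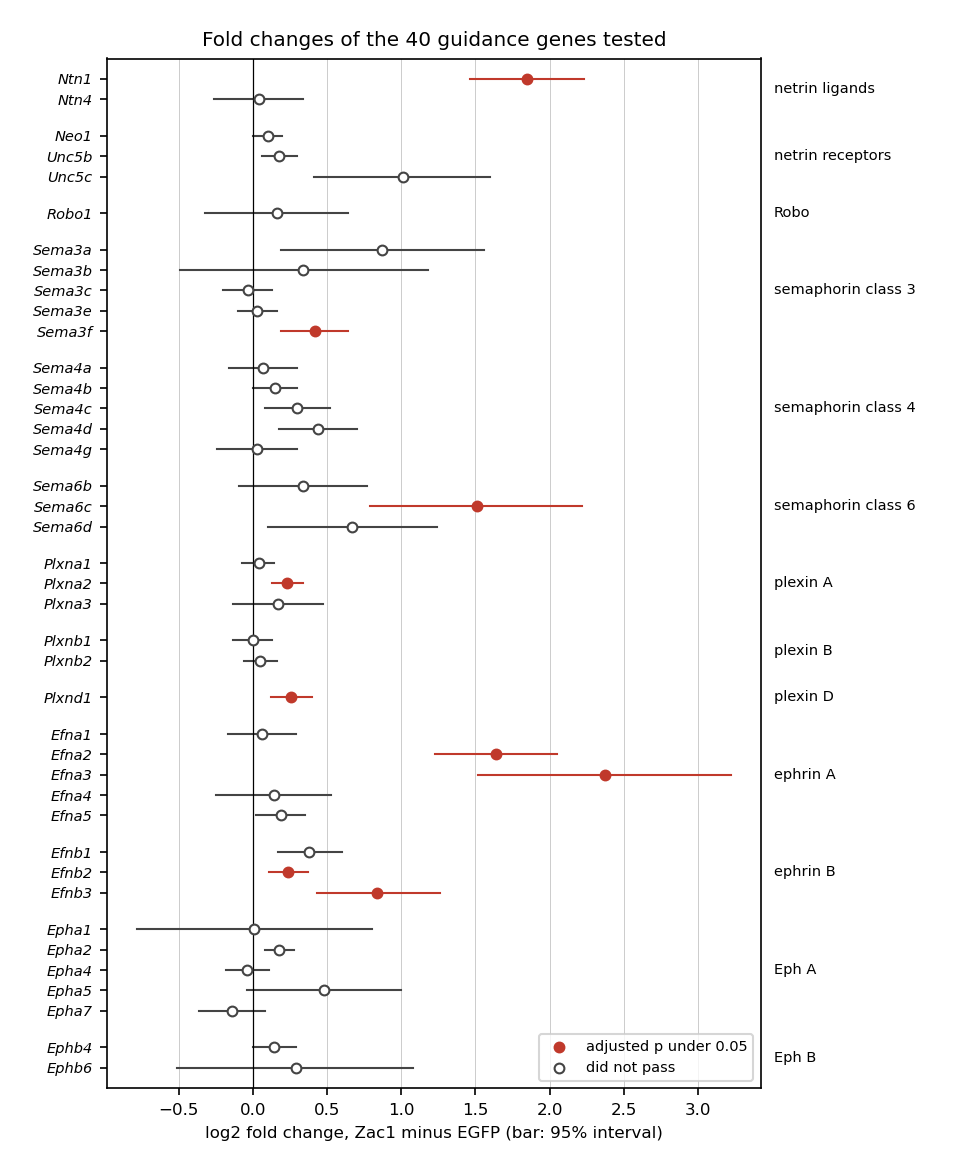
Log2 fold change, Zac1 minus EGFP, of the 40 guidance genes tested, by family, with 95% intervals from edgeR. Filled points passed the test. The 9 filled points lie right of 0, from 0.23 (Plxna2) to 2.37 (Efna3), and 3 open points lie left of 0.

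Ligands held more of the calls than receptors. Of all genes tested, 3.12% rose. Of 23 ligands tested, 7 rose (30.4%), with a median log2 fold change over the tested ligands of 0.34. Of 17 receptors tested, 2 rose (11.8%, median 0.16). Whether the shares of ligands and receptors differ was not tested. The rises came in different sizes at different levels. The 4 members that rose at least 2-fold (Efna3, Ntn1, Efna2 and Sema6c) were at or below 2.37 CPM in EGFP. The other 5 rose by less than 2-fold, and among the 13 tested members at 50 CPM or more in EGFP, estimated log2 changes ran from -0.04 to 0.24. The SE was 0.18 to 0.40 for the 4 low members, against 0.05 to 0.06 for Plxna2, Efnb2 and Plxnd1. A small change is thus less able to pass at low counts, and size and level of the called members are linked in part by the threshold.

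**Figure D2:**
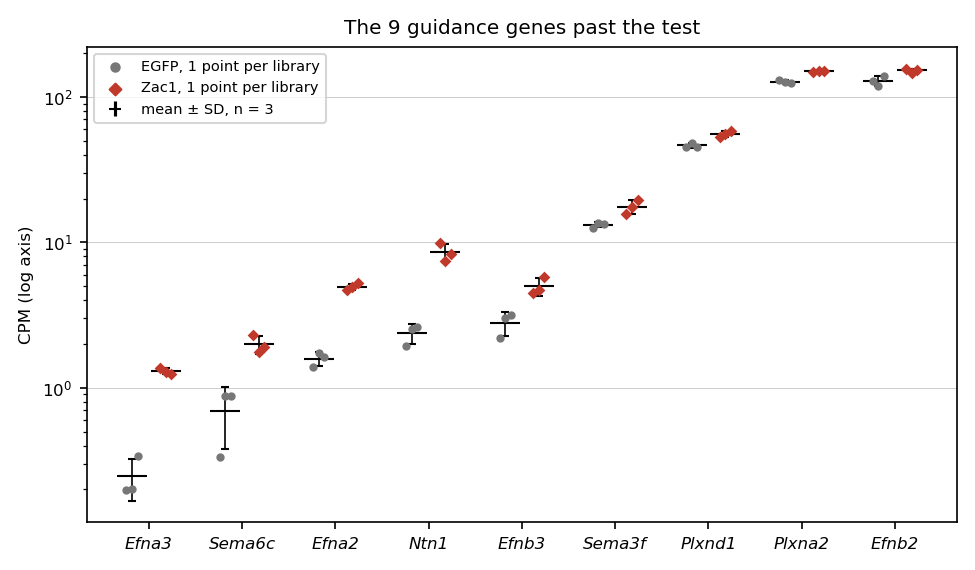
CPM on a log axis of the 9 guidance genes past the test, with 1 point per library and the mean ± SD (n = 3) of each group. In each gene the 3 Zac1 points lie above the 3 EGFP points. The gap is widest for Efna3, at 0.246 against 1.30 CPM, and narrow for Plxna2 and Efnb2, which are both above 100 CPM.

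The levels per kb of exonic sequence (CPM per kb) show which of these proteins AML12 cells have transcripts for. In EGFP libraries Plxnb2, a plexin that binds class 4 semaphorins, stood at 78.8 ± 1.31 CPM per kb (SD, n = 3, as for all levels that follow). Epha2, an Eph receptor of epithelia, followed at 60.7 ± 0.66 CPM per kb. Unc5b, a repulsive netrin receptor, stood at 39.1 ± 1.49 CPM per kb. Next came the secreted ligand Sema3c at 34.8 ± 3.82, the receptor Plxna1 at 31.5 ± 0.775 and the netrin receptor Neo1 at 30.9 ± 0.689 CPM per kb. The spreads of Sema3c, Plxna1 and Neo1 overlapped, so their order is not settled. None of these 6 passed the test between the groups. At the other end, Epha3, Ephb1, Ephb3, Robo4 and Plxnc1 had 0 reads in every library. A count of 0 allows up to 3 counts in a library, so low levels of these genes were not detectable at this depth.

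**Figure D3:**
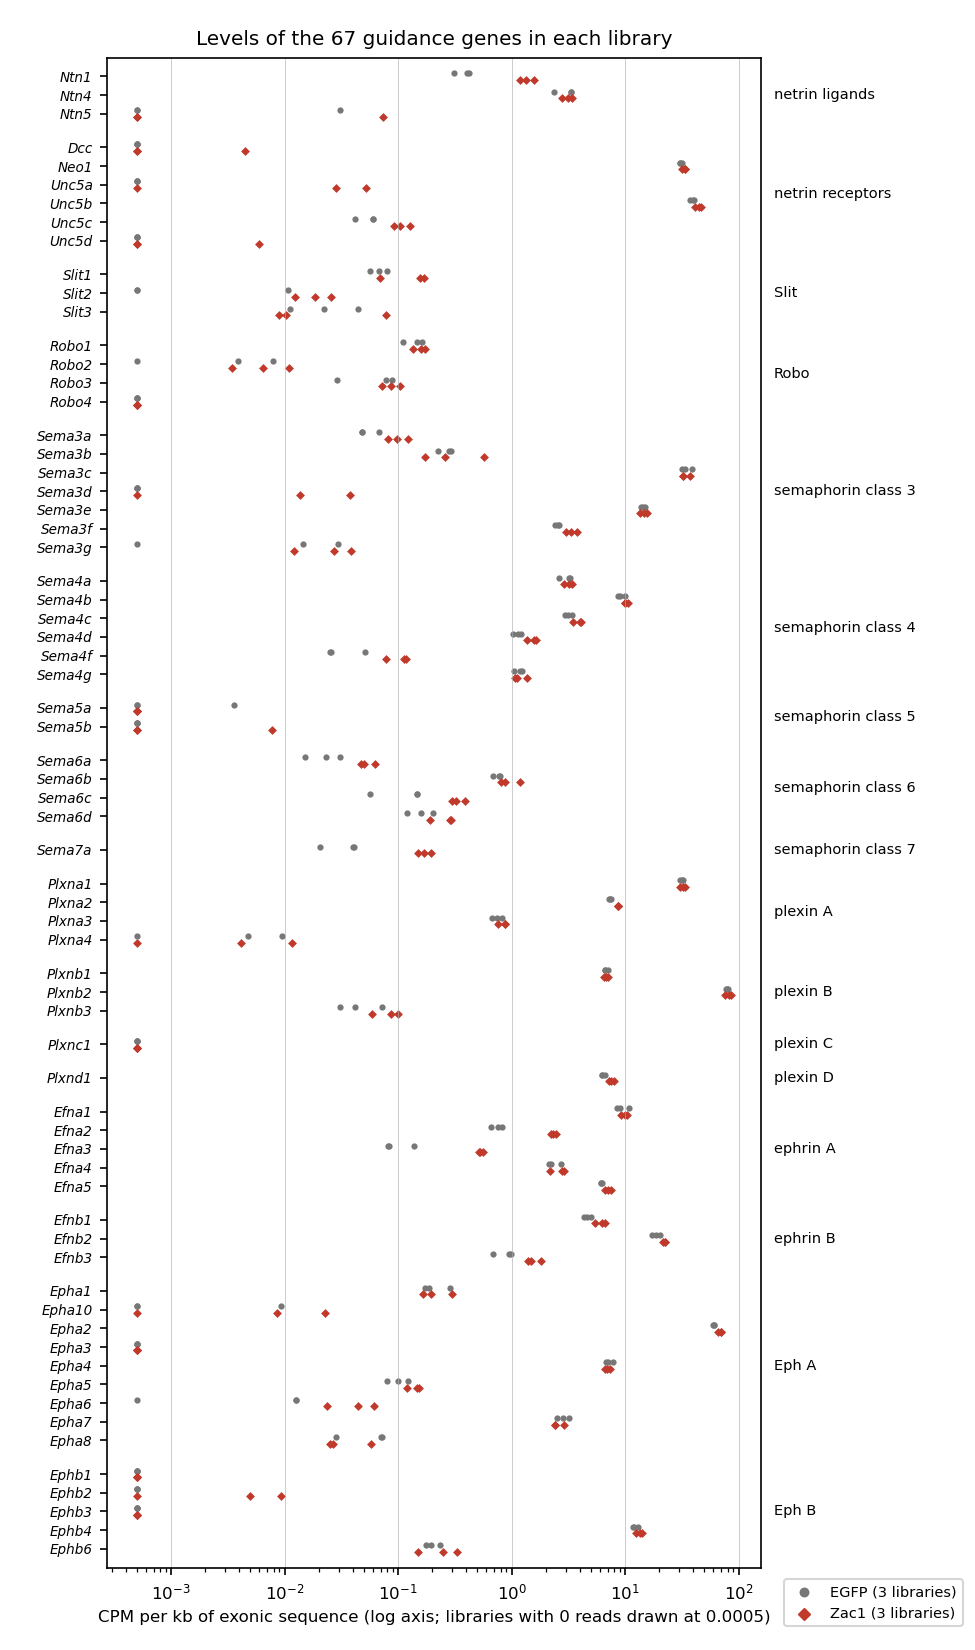
CPM per kb of exonic sequence, on a log axis, of all 67 guidance genes in each of the 6 libraries, by family, with libraries at 0 reads drawn at 0.0005. The range starts at 0 reads, and Plxnb2 is at its top, with means of 78.8 (EGFP) and 81.5 (Zac1) CPM per kb. Most pairs of groups lie close together, and Ntn1, Efna2, Efna3 and Sema6c are visibly apart.

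Among netrins and their receptors, the ligand Ntn1 rose and the receptors did not pass. Ntn1 (ENSMUSG00000020902; GRCm38 chr11:68209364-68400823, minus strand), netrin-1, was read 29, 38 and 39 times in EGFP and 159, 127 and 153 times in Zac1. The groups lay far apart, with no Zac1 library near the EGFP range. Its level went from 2.37 ± 0.384 to 8.56 ± 1.24 CPM, a log2 fold change of 1.85 (SE 0.18, 95% interval 1.46 to 2.23; 3.60-fold; adjusted p = 3.91e-05). Ntn4, a laminin-binding netrin and at 11.3 ± 2.14 CPM in EGFP the netrin with the most reads, was at 11.6 ± 1.11 CPM in Zac1 (log2 fold change 0.04, interval -0.26 to 0.34, adjusted p = 0.931). Ntn5 had 1 read in EGFP and 3 in Zac1.

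Of 6 netrin receptors, 3 were tested and 0 passed, with 2 higher at an unadjusted p under 0.05. DESeq2 and limma called 0 of these receptors, and voom called 2. Unc5b was read at 234.1, 248.1 and 251.9 CPM in EGFP and 259.1, 282.2 and 289.6 CPM in Zac1 (log2 fold change 0.18, adjusted p = 0.0986). Neo1, a Dcc relative that also binds repulsive guidance molecules, was at 269.0 ± 6.01 and 288.2 ± 7.78 CPM (0.10, adjusted p = 0.331). For both, the Zac1 libraries lay above the EGFP libraries by a margin that missed the threshold. Unc5c, another Unc5 receptor, had 12, 17 and 17 reads in EGFP and 28, 34 and 45 in Zac1. Its log2 fold change of 1.01 (interval 0.41 to 1.60) had an adjusted p of 0.0627. The attractive receptor Dcc had 0 reads in EGFP and 1 in Zac1, Unc5d 0 and 1, and Unc5a 0 in each EGFP library and 0, 2 and 4 in Zac1. The groups overlapped for Unc5a. Against a floor of 3 reads over the EGFP group its summed reads are at least 1.74-fold higher per depth, a bound that needs Zac1 6, without which 2 reads are left.

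The ephrins were the ligand family with the most calls. All 8 ephrins were tested, 4 rose, 0 fell and all 8 estimates were above 0 (median log2 fold change 0.31). Over all genes tested, 3.12% rose, 0.668% fell and 49.5% had an estimate above 0. No ephrin was lower at an unadjusted p under 0.05 or by DESeq2, limma or voom. The groups did not overlap for 6 of the 8 (75.0%), with Zac1 higher, which held for 11.9% of all genes. Among the A class, which is tethered to the membrane by a lipid anchor, Efna2 and Efna3 rose. Efna2 (ENSMUSG00000003070; GRCm38 chr10:80179482-80190010, plus strand) had 21, 26 and 24 reads in EGFP and 76, 84 and 96 in Zac1. The level of Efna2 went from 1.59 ± 0.176 to 4.96 ± 0.246 CPM (log2 fold change 1.64, SE 0.19, interval 1.23 to 2.05; 3.12-fold; adjusted p = 0.000218). Efna3 (ENSMUSG00000028039; GRCm38 chr3:89313899-89322965, minus strand) had 3, 3 and 5 reads in EGFP and 22, 22 and 23 in Zac1. Its level went from 0.246 ± 0.0792 to 1.30 ± 0.0605 CPM (log2 fold change 2.37, SE 0.40, interval 1.52 to 3.22; 5.16-fold; adjusted p = 0.0031). Both genes were at under 2 CPM in the control libraries and stayed low in Zac1. An antisense gene that overlaps Efna3, Gm15998, had 1 read in EGFP and 8 in Zac1, and reads of the pair may not be told apart where counting ignored strand.

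Efna3 lies between Efna1 and Efna4 on chromosome 3, all on the minus strand, 32.8 kb from Efna1 and 10.4 kb from Efna4. These neighbours did not pass. Efna1, first known as a gene induced by tumour necrosis factor, was at 15.7, 16.5 and 19.9 CPM in EGFP and 16.7, 19.2 and 18.4 CPM in Zac1 (log2 fold change 0.06, interval -0.17 to 0.29, adjusted p = 0.837). Efna4 was at 3.78 ± 0.481 and 4.16 ± 0.61 CPM (0.14, interval -0.25 to 0.53, adjusted p = 0.773). The intervals of both lie below that of Efna3. Efna5, the A-class ephrin with the most reads, was at 25.0 ± 0.392 and 28.5 ± 1.80 CPM (0.19, interval 0.02 to 0.35, adjusted p = 0.257).

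The B class spans the membrane and signals through its own cytoplasmic tail. Efnb2 (ENSMUSG00000001300; GRCm38 chr8:8617434-8661242, minus strand), a marker of arterial endothelium, was at 128.1, 119.1 and 138.6 CPM in EGFP and 155.5, 146.8 and 153.5 CPM in Zac1. The rise of Efnb2 was small, at a log2 fold change of 0.24 (SE 0.06, interval 0.11 to 0.37; 1.18-fold; adjusted p = 0.0392). Efnb3 (ENSMUSG00000003934; GRCm38 chr11:69554092-69560205, minus strand), the B-class ligand of spinal midline cells, had 33, 45 and 47 reads in EGFP and 72, 80 and 107 in Zac1. Efnb3 went from 2.80 ± 0.526 to 5.002 ± 0.718 CPM (log2 fold change 0.84, SE 0.19, interval 0.43 to 1.26; 1.79-fold; adjusted p = 0.0246). Efnb1 was at 16.1, 17.3 and 14.9 CPM in EGFP and 18.6, 21.6 and 22.7 CPM in Zac1, without overlap, and just missed the threshold (log2 fold change 0.38, interval 0.17 to 0.60, adjusted p = 0.0514).

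The sequences before the start sites of 5 ephrin genes are shown because genes that rose and genes that did not pass can be set side by side. They are the 250 bases before the start in RefSeq, GRCm38.p6, 5′ to 3′ on the strand of the gene. Capitals mark each CG pair, except in Efnb2, where they mark GGGGCCCC, a sequence known from Zac1 binding studies. Efna2 (chr10:80179232-80179481, plus strand, 73.6% GC, 25 CG pairs), Efna3 (chr3:89322940-89323189, minus strand, 63.6% GC, 19 CG pairs) and Efnb2 (chr8:8661243-8661492, minus strand, 72.0% GC, 27 CG pairs) rose.
Efna2: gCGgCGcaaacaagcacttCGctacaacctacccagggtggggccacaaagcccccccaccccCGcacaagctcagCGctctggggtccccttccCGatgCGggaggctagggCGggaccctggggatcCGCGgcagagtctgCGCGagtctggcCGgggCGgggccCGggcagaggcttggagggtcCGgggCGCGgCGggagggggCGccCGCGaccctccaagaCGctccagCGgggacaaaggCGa
Efna3: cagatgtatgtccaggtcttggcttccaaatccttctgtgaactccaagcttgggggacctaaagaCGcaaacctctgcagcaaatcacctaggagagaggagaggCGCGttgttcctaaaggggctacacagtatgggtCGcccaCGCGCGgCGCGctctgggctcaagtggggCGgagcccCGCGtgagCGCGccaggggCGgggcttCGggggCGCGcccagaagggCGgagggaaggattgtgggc
Efnb2: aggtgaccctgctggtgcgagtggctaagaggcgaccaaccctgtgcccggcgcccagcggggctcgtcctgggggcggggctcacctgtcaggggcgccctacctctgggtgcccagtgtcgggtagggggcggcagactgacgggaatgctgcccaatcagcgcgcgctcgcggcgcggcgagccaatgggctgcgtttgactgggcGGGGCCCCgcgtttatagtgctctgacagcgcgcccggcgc
Efna1 (chr3:89280952-89281201, minus strand, 64.8% GC, 16 CG pairs) and Efna5 (chr17:62881318-62881567, minus strand, 74.8% GC, 32 CG pairs) did not pass.
Efna1: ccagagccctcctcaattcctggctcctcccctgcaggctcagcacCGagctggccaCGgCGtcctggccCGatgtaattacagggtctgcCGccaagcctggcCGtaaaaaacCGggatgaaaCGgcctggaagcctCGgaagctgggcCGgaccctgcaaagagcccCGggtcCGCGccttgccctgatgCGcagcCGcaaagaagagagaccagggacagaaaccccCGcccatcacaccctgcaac
Efna5: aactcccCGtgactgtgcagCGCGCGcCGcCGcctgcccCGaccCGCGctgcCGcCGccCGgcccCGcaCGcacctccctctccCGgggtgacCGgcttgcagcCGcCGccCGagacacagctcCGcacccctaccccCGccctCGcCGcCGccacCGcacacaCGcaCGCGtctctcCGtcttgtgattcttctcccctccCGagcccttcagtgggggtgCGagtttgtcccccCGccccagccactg
These sets overlap in GC and in CG pairs. The windows of Efna4 and Efnb1, which did not pass and are not printed, held less of both. Counted with the 50 bases after the start, they had 55.7% GC with 11 CG pairs and 59.7% with 14, against 64.0% to 74.7% and 22 to 35 in the ephrin windows of genes that rose.

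GGGGCCCC reads the same on both strands. It was searched in windows from 250 bases before to 50 after each start, which the RefSeq table holds for 57 of the 67 members (73 windows). It was found in 1 member window, that of Efnb2, 41 bases before the start. This is 1.37% of the member windows, against 1.08% of all 32851 windows and 1.44% of the windows of genes tested. Among genes that rose, members or not, 3.63% of 386 windows held it. Those windows had a median GC of 66.0%, against 60.7% over the windows of genes tested. GGGGCCCC is made of G and C only, and its share at equal GC was not counted. A match is a run of letters and no shown binding site. The table holds no window for Ntn1, Efnb3 and Sema3f. Median GC was 65.8% over the windows of members that rose and 64.0% over those of members that did not pass.

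Eph receptors, the partners of the ephrins, did not pass. Of 14 Eph receptors, 7 were tested and 0 passed (median log2 fold change 0.14, range -0.14 to 0.48), with 1 higher at an unadjusted p under 0.05. That was Epha2, which limma and voom called and DESeq2 did not. Epha2 was at 285.7, 285.0 and 280.1 CPM in EGFP and 308.8, 327.0 and 327.5 CPM in Zac1, without overlap (log2 fold change 0.18, interval 0.08 to 0.28, adjusted p = 0.0517). Ephb4, the receptor that pairs with Efnb2 in vessels, was at 56.4 ± 3.15 and 62.3 ± 3.74 CPM (0.14, adjusted p = 0.325). Epha7 had the lowest estimate of the 40 members tested, at 28.0 ± 3.36 and 25.5 ± 2.87 CPM (-0.14, interval -0.36 to 0.08, adjusted p = 0.56). Epha6 lay below the count minimum, with 2 reads in EGFP and 12 in Zac1, a ratio per depth of 5.21 (exact 95% interval 1.16 to 47.9). Such intervals on summed reads are Clopper-Pearson intervals and cover counting error only, since reads without molecular identifiers are not independent molecules. Epha8 had 12 reads in EGFP and 9 in Zac1 (ratio per depth 0.652, exact interval 0.242 to 1.68), with overlapping groups and no clear direction.

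Semaphorins rose in 2 of 13 tested members of 20 (15.4% of those tested, against 3.12% of all genes), in class 3 and class 6. Sema3f (ENSMUSG00000034684; GRCm38 chr9:107681500-107710475, minus strand), a secreted repellent that signals through neuropilin-2, was at 12.6, 13.6 and 13.4 CPM in EGFP and 15.8, 17.4 and 19.6 CPM in Zac1. The groups did not overlap, and the log2 fold change was 0.42 (SE 0.11, interval 0.19 to 0.64; 1.34-fold; adjusted p = 0.0398). Gnat1, a gene on the same strand within 5 kb of Sema3f, had 3 reads in EGFP and 23 in Zac1. Sema3b, which lies 72.3 kb from Sema3f on the same strand, had 21, 20 and 16 reads in EGFP and 20, 14 and 50 in Zac1, so that 1 Zac1 library lay above an otherwise shared range. Sema3c, the class 3 member with the most reads, was at 248.4 ± 27.3 and 242.6 ± 20.1 CPM (log2 fold change -0.03, interval -0.20 to 0.13, adjusted p = 0.872).

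Sema6c (ENSMUSG00000038777; GRCm38 chr3:95160457-95174024, plus strand), a membrane semaphorin, had 5, 13 and 13 reads in EGFP and 37, 30 and 35 in Zac1. Sema6c went from 0.695 ± 0.313 to 1.99 ± 0.281 CPM (log2 fold change 1.51, SE 0.33, interval 0.79 to 2.22; 2.84-fold; adjusted p = 0.0204). Sema6b, the class 6 member with the most reads, had 46, 47 and 40 reads in EGFP and 75, 59 and 59 in Zac1 (0.34, interval -0.09 to 0.77, adjusted p = 0.442). Of the class 4 semaphorins, membrane proteins with roles in immune and epithelial cells, 5 of 6 were tested and 0 passed, with 3 higher at an unadjusted p under 0.05. DESeq2 and limma called 0 of them and voom 2. Sema4d, a ligand of Plxnb1, was at 8.73, 9.20 and 7.84 CPM in EGFP and 12.0, 12.6 and 10.4 CPM in Zac1, without overlap (0.44, interval 0.18 to 0.70, adjusted p = 0.0624). Sema4b, with the most reads in its class, was at 51.9 ± 3.98 and 57.8 ± 2.34 CPM (0.15, adjusted p = 0.298). Sema7a, the lipid-anchored class 7 member, was below the count minimum with 5 reads in EGFP and 29 in Zac1 (ratio per depth 5.04, exact interval 1.93 to 16.7). With no count minimum, where 3.36% of all genes rose, edgeR called Sema7a higher too (adjusted p = 0.0431). That fit shares the variance almost wholly over genes, so the call is no firmer evidence. Sema4f had 8 reads and 28 (3.04, 1.35 to 7.72), and Sema5a and Sema5b 1 read each over all libraries. Sema3d had 0 reads in each EGFP library and 0, 2 and 6 in Zac1, so the groups overlapped. Its bound of at least 2.32-fold higher against the floor of 3 reads needs Zac1 6, without which 2 reads are left.

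Of 9 plexins, 6 were tested and 2 rose (33.3%, against 3.12% of all genes), both by a small amount at a high count. Plxna2 (ENSMUSG00000026640; GRCm38 chr1:194618218-194816869, plus strand), a receptor for class 6 and, with neuropilins, class 3 semaphorins, was at 130.2, 126.4 and 124.7 CPM in EGFP and 149.3, 149.5 and 149.6 CPM in Zac1. The 3 Zac1 libraries were nearly equal, with a log2 fold change of 0.23 (SE 0.05, interval 0.13 to 0.34; 1.18-fold; adjusted p = 0.0152). Plxnd1 (ENSMUSG00000030123; GRCm38 chr6:115954811-115995005, minus strand), the receptor of Sema3e in vessels, rose from 46.3 ± 1.58 to 55.5 ± 2.47 CPM (0.26, SE 0.06, interval 0.12 to 0.40; 1.20-fold; adjusted p = 0.0362), a call and a direction lost under the least-squares GC correction (-0.02, adjusted p = 0.86). Plxnb2 was at 608.6 ± 10.1 and 629.4 ± 37.6 CPM (0.05, interval -0.06 to 0.16, adjusted p = 0.694). Plxna1 was at 285.2 ± 7.02 and 292.4 ± 13.4 CPM (0.04, interval -0.07 to 0.14, adjusted p = 0.787). The upper bound of both intervals is a 1.11-fold rise.

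Slit and Robo transcripts were at low levels in these cells, with Robo1 the highest at 2.30 ± 0.432 CPM in EGFP. None of the 3 Slits reached the count minimum. Slit1 had 5, 6 and 7 reads in EGFP and 16, 7 and 17 in Zac1, so the groups overlapped. Its summed reads were 18 in EGFP and 40 in Zac1 (ratio per depth 1.93, exact interval 1.08 to 3.58). Slit2 had 4 reads, all in EGFP 3, and 25 in Zac1 (5.43, 1.87 to 21.5), and Slit3 had 7 and 10. Of 4 Robos, Robo1 alone was tested, at 40, 36 and 27 reads in EGFP and 46, 45 and 41 in Zac1 (log2 fold change 0.16, interval -0.32 to 0.64, adjusted p = 0.789). Robo3 had 20 and 31 reads.

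Members at or near 0 reads in EGFP were read somewhat more often in Zac1. The number of members with at least 1 read was 52, 51 and 53 in the EGFP libraries and 54, 57 and 59 in the Zac1 libraries. The counts were the same after each library was thinned to 14801240 reads. The same was seen over all genes, of which 16493 to 16664 had a read in the thinned EGFP libraries and 17120 to 17557 in the thinned Zac1 libraries.

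Of the marker lists of other cell types, the endothelial and the stellate and fibroblast sums were higher in Zac1, both at low levels. In the endothelial list, 1 gene reached the count minimum (log2 fold change 0.86) and did not pass, though voom called it. In the stellate and fibroblast list, 1 gene reached it (1.54) and passed. A shift of either list as a whole is thus not shown. The summed level of 14 endothelial markers was 2.23 to 3.22 CPM in EGFP and 4.11 to 5.22 CPM in Zac1, with Tie1, Emcn, Erg, Cldn5, Egfl7 and Lyve1 at 0 reads in every library. The sum of 12 stellate and fibroblast markers was 1.14 to 2.03 and 2.68 to 3.52 CPM, with Lrat, Dcn and Lum at 0. Neuronal markers, 13 genes, summed to 12.7 to 14.6 and 12.3 to 15.5 CPM, and Tubb3, Stmn2, Elavl4, Nefl, Nefm, Dcx and Gap43 were at 0. The 9 cholangiocyte markers summed to 787 to 827 and 763 to 794 CPM, the 10 leukocyte markers to 2.50 to 2.69 and 2.30 to 3.10 CPM, and the 18 hepatocyte markers to 1676 to 1920 and 1544 to 1809 CPM. Of the hepatocyte markers, 9 were tested, of which 1 rose and 1 fell, against 3.12% and 0.668% of all genes. The part of the endothelial and stellate lists in the guidance results was not tested.

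Transcript GC content moved with the fold changes of the whole table. The lowest decile of genes by GC (median 39.6%) had a median log2 fold change of -0.09 and 0.248% of genes that rose. The highest decile (median 59.4%) had 0.103 and 11.5%. The 9 members that rose had a median GC of 57.8% (49.7% to 61.5%) and the 31 that did not pass 55.2% (40.1% to 63.5%), against 49.4% over all genes tested. With a robust GC correction, under which 3.0% of all genes rose, 7 members rose, 0 fell and 33 of 40 estimates were above 0 (median 0.15). In that fit Plxnd1 (adjusted p = 0.146) and Sema3f (adjusted p = 0.0593) did not pass. With a least-squares correction, under which 2.78% of all genes rose and 5.99% fell, 7 rose, among them Unc5c (1.03, adjusted p = 0.033), and 3 fell. The 3 that fell there were Plxna1 (-0.14, adjusted p = 0.0309), Plxnb2 (-0.13, adjusted p = 0.0358) and Plxnb1, and Efnb2 (adjusted p = 0.0583) and Sema3f (adjusted p = 0.195) did not pass. Ntn1, Efna2, Efna3, Efnb3, Plxna2 and Sema6c rose under both corrections.

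**Figure D4:**
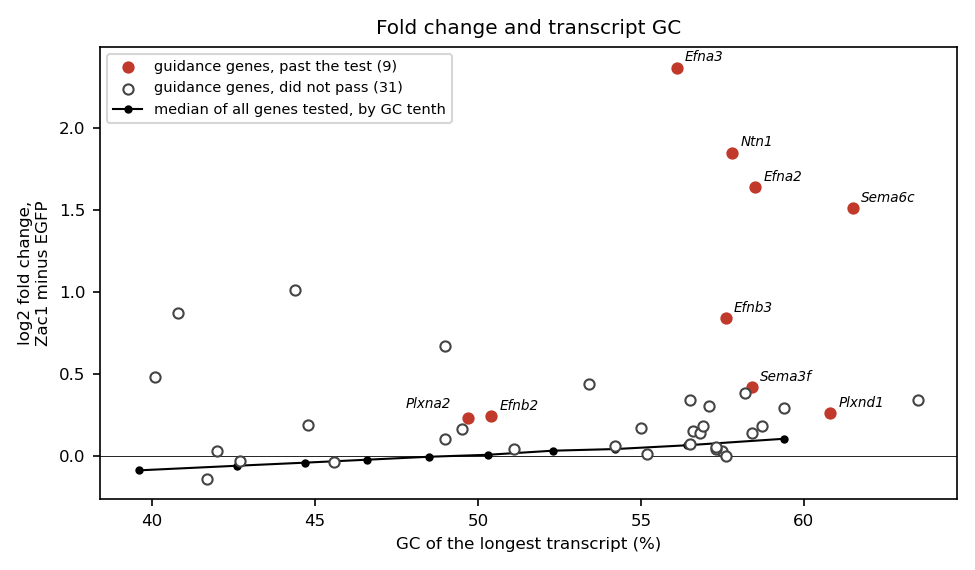
Log2 fold change, Zac1 minus EGFP, against the GC content of the longest transcript for the 40 guidance genes tested, with the median of all genes tested in each GC decile as a line. The line climbs from -0.09 to 0.103. Efna3, Ntn1, Efna2 and Sema6c lie above 1.5, far over the line.

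The other genes of these pathways showed fewer calls. Of 123 listed co-receptors, adaptors and growth cone signalling genes, 121 were matched and 93 tested. Of these, 7 rose (7.53%, against 3.12% of all genes) and 0 fell, with 52 estimates above 0 and a median log2 fold change of 0.03. These lists were also chosen with earlier results of these data known. At an unadjusted p under 0.05, 5 partners were lower. DESeq2 called 5 higher and 0 lower, limma 7 and 0, and voom 11 and 5. Of all 12130 genes, voom called 797 higher and 500 lower. By list, 1 of 4 netrin and repulsive guidance partners rose, 2 of 24 semaphorin partners and 1 of 11 Slit and Robo partners. So did 2 of 20 ephrin partners and 1 of 34 shared growth cone genes. The last share, 2.94%, is near the 3.12% of all genes.

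The rise of Flrt1, a membrane protein of a family that binds Unc5 receptors, was as large as that of Efna3. Flrt1 had 14, 12 and 11 reads in EGFP and 63, 90 and 69 in Zac1, or 0.827 ± 0.0965 and 4.32 ± 0.84 CPM (log2 fold change 2.37, interval 1.83 to 2.91; adjusted p = 0.000103). The others rose less. They were Micall2, a Mical-like adaptor (0.64, adjusted p = 0.0111), Sh3bp1 (0.64, adjusted p = 0.0225) and the kinase Pak1 (0.35, adjusted p = 0.0205). Vav3 (0.61, adjusted p = 0.0288), Kalrn (0.51, adjusted p = 0.0354) and Limk1, a kinase that acts on cofilin (0.41, adjusted p = 0.0433), rose as well. When 1 library was left out in turn, Flrt1 passed in 6 of 6 fits, Micall2 and Pak1 in 4, Sh3bp1 in 3, Vav3 in 2, Kalrn in 1 and Limk1 in 0 (adjusted p = 0.0528 to 0.211). Limk1 did not pass with DESeq2 (0.0657), the minimum at 50 (0.0645) or either GC correction (robust 0.0999, least-squares 0.219), where its log2 fold change was 0.33 and 0.22. Kalrn did not pass with DESeq2 (0.0752) or the minimum at 50 (0.0519), nor Sh3bp1 with the least-squares correction (0.0638). The neuropilins, co-receptors of class 3 semaphorins, did not pass. Nrp1 was at 13.7, 13.0 and 13.2 CPM in EGFP and 13.2, 14.1 and 15.6 CPM in Zac1 (0.11, adjusted p = 0.668), and Nrp2 at 23.3 ± 2.40 and 21.9 ± 4.06 CPM (-0.09, adjusted p = 0.768).

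Ntn1, Efna2 and Efna3 passed when any 1 library was left out, with adjusted p of at most 0.0011, 0.00391 and 0.0186. The other 6 members each lost their call without at least 3 of the 6 libraries in turn. Plxna2 lost it without EGFP 2 (adjusted p = 0.0524), EGFP 3 (0.109), Zac1 5 (0.108) or Zac1 6 (0.0632). Sema6c lost it without EGFP 1 (0.0539), EGFP 3 (0.0562) or Zac1 6 (0.0681), and Efnb3 without EGFP 1 (0.0702), EGFP 3 (0.066), Zac1 5 (0.072) or Zac1 6 (0.148). Efnb2 lost it without EGFP 1 (0.06), EGFP 2 (0.141), Zac1 5 (0.109) or Zac1 6 (0.145). Of the 6 fits, Plxnd1 and Sema3f passed in that without Zac1 4 alone, with adjusted p of up to 0.185 and 0.222 otherwise. Without 1 library, 3 (without Zac1 6, where 1.63% of all genes rose) to 13 (without Zac1 4, 4.82%) members rose and 0 fell. Without EGFP 1 and Zac1 4 together 14 rose, all 9 among them, against 7.0% of all genes. With the count minimum raised to 50, Efnb2 (0.0615), Plxnd1 (0.0512) and Sema3f (0.0602) did not pass, nor did Efnb2 (0.0872) and Plxnd1 (0.0551) with no abundance trend in the variance.

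**Figure D5:**
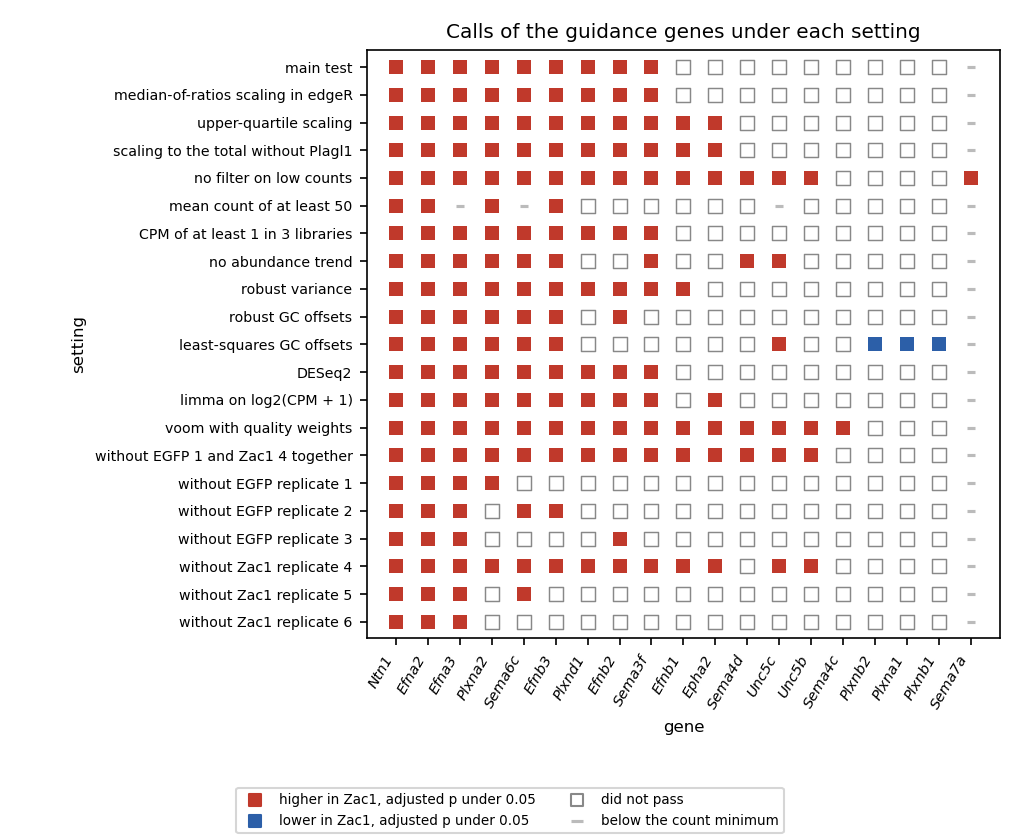
Calls of the guidance genes that passed under at least 1 setting (columns), under the edgeR test as reported and the alternatives (rows). The prior count of 2 is not drawn, since it leaves calls unchanged. Squares are red for higher in Zac1 and blue for lower, open squares did not pass and dashes mark genes below the count minimum. Ntn1 and Efna2 are red in every row, Efna3 in every row in which it was tested, and blue appears for 3 plexins in the row of least-squares GC offsets.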

How the data were processed

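PolyA RNA of AML12 cells, 3 libraries per group, was counted per gene. The authors deposited 1 table of counts with 1 column per library; the file is called normalized, but its whole numbers and unequal totals behave as unscaled counts. FastQC, STAR, HTSeq and DESeq2 are named, per the submitters' processing notes, without versions. The genome build, annotation and strand setting are not stated in those notes or labels (not given in the sources used here); the kit was directional, per the labels' protocols.

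Symbols and coordinates came from GENCODE M21 (GRCm38) by gene ID, and 49326 of 49585 IDs matched. The members and lists were chosen with earlier results of these data known. Genes whose mean count reached 10 were tested two-sided, Zac1 minus EGFP, with edgeR 4.0.16 (R 4.3.3; quasi-likelihood test, TMM factors, prior count 0.125 for fold changes) with Benjamini-Hochberg adjustment over all of them. The SE is the log2 fold change divided by the square root of F. CPM uses TMM-scaled totals. Library totals, 14801240 to 18302538, set the precision of low genes. Alternatives were other scalings, filters, variance options and GC offsets, a prior count of 2, DESeq2 1.42.0, limma 3.58.1, voom weights and leaving out libraries. The fit was tested on simulated data. Named genes are the members past the test and, per family, the member with the most reads and the tested one with the smallest p, plus partners past the test, Nrp1, Nrp2 and Plagl1; Unc5b, Efnb1, Efna4, Epha6, Epha7, Epha8, Sema3b, Sema3d, Sema4f, Robo3, Ntn5, Slit2, Slit3, Unc5a, Unc5d, Sema5a, Plxnb1, the genes at 0 reads, the neighbours and the named markers were chosen after their values were seen.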

Additional observations from a re-analysis of the deposited data

How the results depend on the processing

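With 1 library left out in turn, the 9 members that rose kept their call in 29 of 54 fits and lost it in 25, with 0 reversals. Over the other alternatives they kept it in 123 of 133, lost it in 9 and reversed in 1 (Plxnd1, -0.02 with least-squares GC offsets). These alternatives include a prior count of 2, which alters the fold change and not the p-value, so calls under it could not change. The number of genes called, 459 as reported, was 1064 with least-squares GC offsets, 241 with the mean count minimum raised to 50, 979 unfiltered, 1297 with voom weights, 1461 without EGFP 1 and Zac1 4 together, and 206 to 963 with 1 library left out. For members (9 as reported) it was 4 with the minimum at 50, 15 with no filter, 15 with voom weights, 14 without both libraries and 3 to 13 with 1 left out. For partners (7 as reported) it was 4, 13, 16, 18 and 2 to 16 in the same order. The unfiltered fit and that without both libraries share the variance almost wholly over genes, so their higher counts are no firmer evidence.

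Signs turned only for genes that did not pass, apart from Plxnd1. With least-squares GC offsets the log2 fold changes were -0.07 (Ephb4), -0.02 (Ntn4), -0.14 (Plxna1), -0.13 (Plxnb2), 0.01 (Sema3c), -0.01 (Sema4b) and -0.01 (Sema6b). Signs also turned under these offsets for Plxnb1 (-0.19), Sema4g (-0.16), Epha1 (-0.11), Sema4a (-0.09), Unc5b (-0.05), Efna1 (-0.04) and Efna4 (-0.03). With robust GC offsets the values were -0.04 (Plxna1), -0.03 (Plxnb2), 0.02 (Sema3c), -0.07 (Plxnb1), -0.05 (Sema4g) and -0.04 (Epha1). Ntn4 was at -0.04 without both libraries and -0.11 to 0.12 with 1 left out, Sema3c at -0.10 to 0.06 and Nrp2 at -0.25 to 0.00. The cause was not tested. No paired analysis was possible because the groups share no replicate number. At a few reads per library, fold changes of low members are imprecise, and a member with 0 reads could be present below the floor of 3 counts.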
